A study of Mus musculus with 6 samples.

Results

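The genes described here are targets of the transcription factor p53, followed in the colon epithelium of mice fed ursodeoxycholic acid (UDCA). UDCA is a water-loving bile acid given as a medicine in some liver diseases. The set was named in advance as 9 genes (Trp53, Ccng1, Cdkn1a, Mdm2, Trp53inp1, Phlda3, Perp, Gdf15 and Btg2), and its members are all probe sets that carry 1 of these symbols in the platform annotation. That rule gave 13 of 22690 probe sets, for 7 of the 9 genes. Trp53 and Gdf15 were not analysed here. No measured value entered the rule, but the set was proposed with earlier results of these data known.

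The control mice received a standard diet, and the treated mice a diet with 0.4% UDCA. Each group consisted of 3 pools, named 1+2, 3+4 and 5+6, and each pool held the RNA of 2 animals and was measured on 1 Affymetrix array. Strain, age, sex and the length of feeding were not given in the sources used here. The labels also carry a cell line tag, IEC-6, beside the mouse colon epithelium, and since title, source and organism all point to tissue, each array was treated as a tissue pool. In such bulk samples, fewer cells of a type and less RNA per cell cannot be told apart.

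p53 is held at a low level by the ubiquitin ligase Mdm2 and is stabilised as a protein when DNA is damaged or the cell is under other stress. It then binds DNA elements near its target genes and raises their transcription. The targets arrest the cell cycle (Cdkn1a, Btg2), adjust survival signals (Phlda3, Perp, Trp53inp1) or limit p53 itself (Mdm2, Ccng1). In the intestine the pathway is best known from crypt cells after irradiation. Several targets, among them Cdkn1a and Btg2, are also induced by signals that do not need p53.

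The DNA element of p53 is a pair of 10-base units with a spacer of 0 to 13 bases. Promoter windows of RefSeq (GRCm38.p6) from 250 bases before to 50 after each start were listed for 5 of the 7 genes, in 6 windows. Perp and Trp53inp1 had none in that table. A pair with at most 2 mismatches and both core bases intact was found in 2 of these 6 windows, of Ccng1 and Cdkn1a, against 4.09% of all 32851 windows. A single unit without mismatch was found in 3 of 6 windows, those of Ccng1, Cdkn1a and Mdm2, against 8.36% of all windows. The element reads the same on both strands, so 1 strand was searched, and a match is a description of letters and not a site of binding. These 3 stretches are shown because they are the letters through which the members resemble the p53 element, with the matching units in capitals.
Ccng1, chr11:40755442-40755501, minus strand, pair with no spacer and 1 mismatch, 195 bases before the start: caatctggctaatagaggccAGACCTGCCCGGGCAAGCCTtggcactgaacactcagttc
Cdkn1a, chr17:29090908-29090967, plus strand, pair with no spacer and 1 mismatch, 51 bases before the upstream of 2 starts: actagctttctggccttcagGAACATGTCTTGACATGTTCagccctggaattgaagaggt
Mdm2, chr10:117710915-117710964, minus strand, single unit, 186 bases before the start: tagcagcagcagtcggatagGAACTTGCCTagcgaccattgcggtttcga
Where a window held several such pairs, the one with the shortest spacer is shown. No match was found in the windows of Btg2 and Phlda3 or at the other Cdkn1a start.

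The arrays differed in level as deposited, with median signals of 67.4 to 84.0 in control pools and 68.2 to 87.3 in UDCA pools. Signals were therefore quantile-normalized, and signals below are normalized ones unless called deposited. They are given in the order of pools 1+2, 3+4 and 5+6. The median log2 fold change of all tested probe sets was 0.01 after normalization, 0.08 on the deposited scale, 0.07 after centring and -0.02 after scaling to a trimmed mean. UDCA and control pools were compared with limma on log2(signal + 16) over 11345 probe sets, those in the brighter 50% by mean signal, with Benjamini-Hochberg adjustment over all of them and a threshold of 0.05. Of the 13 probe sets of the 7 genes, 12 lay above this filter. Across these arrays the tissue's own markers were bright, with all 9 colonocyte markers above the filter, while 0 of the 6 T and NK cell, 5 myeloid, 5 fibroblast, 4 endothelial, 5 smooth muscle and 4 named B and plasma cell markers were. Pairwise correlations of log2 signals over tested probe sets lay between 0.964 and 0.986. Control pool 5+6 correlated more closely with UDCA pool 5+6 (0.984) and UDCA pool 1+2 (0.979) than with either of the other control pools (0.976 with each). Without it, 36 probe sets in place of 1 passed over the whole array, and 0 of the 12 described here. The log2 fold changes were then 0.33 for Ccng1 1420827_a_at and -0.55 for Btg2 1416250_at (limma adjusted p = 0.157 and 0.149), against 0.31 and -0.41 with all pools.

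None of the 12 probe sets passed the threshold in limma (0 of 12, smallest adjusted p = 0.286), against 0.00881% of all tested probe sets, which is 1 probe set. At an unadjusted p under 0.05 there were 4 of 12, the 3 of Ccng1 and 1 of Btg2, against 13.6% of all tested (6.96% higher and 6.66% lower in UDCA). The median log2 fold change was 0.09 over the 12 probe sets and 0.01 over all tested ones, and 7 of the 12 were positive against 51.3% of all. Counted by gene with the brightest probe set, the median was -0.03 and 3 of 7 were positive against 50.1% of all genes. The sign of the median thus differed between counting by probe set and by gene. The pools themselves differed from gene to gene as follows.

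Ccng1 encodes cyclin G1, which recruits a phosphatase that acts on Mdm2. Its brightest probe set, 1420827_a_at, had signals of 934, 949 and 984 in control pools and 1228, 1200.2 and 1136 in UDCA pools. Every UDCA pool lay above every control pool. The difference was 1.24-fold (95% interval 1.08 to 1.42), which gave a log2 fold change of 0.31 with an SE of 0.09 (limma adjusted p = 0.286). The other probe sets, 1450016_at and 1450017_at, had log2 fold changes of 0.29 (SE 0.12) and 0.23 (SE 0.10), with limma adjusted p = 0.361 and 0.357. For 1450016_at the signals were 305.2, 353.5 and 367.2 in control pools and 471.4, 374.1 and 419.9 in UDCA pools. For 1450017_at they were 503.1, 502.9 and 518.0 in control pools and 643.1, 593.6 and 566.5 in UDCA pools. All 3 probe sets thus had groups that did not overlap after normalization, which 10.9% of all tested probe sets had in that direction. None of the other 9 had, and the share of all tested was 19.2% in either direction and 8.34% in the lower one. An exact permutation test of log2 signals gave p = 0.1 for each of the 3 Ccng1 probe sets, the smallest that 3 against 3 pools allow.

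The separation of Ccng1 rested partly on the scaling. As deposited, 1420827_a_at had 769.1, 931.6 and 1059.6 in control pools and 1246.3, 1408.7 and 1061.7 in UDCA pools, so that control pool 5+6 and UDCA pool 5+6 differed by very little. It was the only one of the 12 probe sets whose groups were apart as deposited, where 7.70% of all tested probe sets were apart and 3.73% were apart and higher in UDCA. Its log2 fold change was 0.43 on the deposited scale. Over all alternatives run it lay between 0.28 and 0.43 and never passed (limma adjusted p from 0.142 to 0.700).

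Cdkn1a encodes p21, an inhibitor of cyclin-dependent kinases and the classical arrest gene of the p53 pathway. Probe set 1424638_at had signals of 1827, 1994 and 1876 in control pools and 2849, 2177 and 1335 in UDCA pools. UDCA pools 1+2 and 3+4 lay above all control pools, and UDCA pool 5+6 lay below all of them. The log2 fold change was 0.09 with an SE of 0.23 (limma adjusted p = 0.877), with a 95% interval from 0.74-fold to 1.54-fold. Probe set 1421679_a_at showed the same order of UDCA pools, with 340.6, 485.4 and 470.2 in control pools and 655.8, 523.7 and 326.0 in UDCA pools. Its log2 fold change was 0.17 (SE 0.24; limma adjusted p = 0.770). The sign rested on UDCA pool 1+2, without which the log2 fold changes were -0.15 for 1424638_at and -0.04 for 1421679_a_at. Without UDCA pool 5+6 they were 0.39 and 0.44 (limma adjusted p = 0.201 and 0.280).

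Phlda3 encodes a small protein with a PH domain that competes with the kinase Akt for membrane lipids. Its probe set 1449002_at had signals of 70.7, 76.0 and 77.5 in control pools and 126.5, 124.3 and 54.2 in UDCA pools. The control pools lay close together, whereas the UDCA pools split, 1+2 and 3+4 above and 5+6 below all controls. The log2 fold change was 0.30 with an SE of 0.26 (limma adjusted p = 0.610), with a 95% interval from 0.82-fold to 1.87-fold. With single arrays left out it ranged from 0.13 to 0.64. The highest value was that without UDCA pool 5+6, the low one (SE 0.14; limma adjusted p = 0.129). As deposited the split was the same, with 63.4, 75.2 and 85.7 in control pools and 122.3, 143.4 and 48.1 in UDCA pools. This probe set was dim. The filter's floor corresponds to a signal of 76.1, and the control mean of 74.7 lay below it and the UDCA mean of 101.7 above it, so Phlda3 entered the fit only through its UDCA pools.

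**Figure D1:**
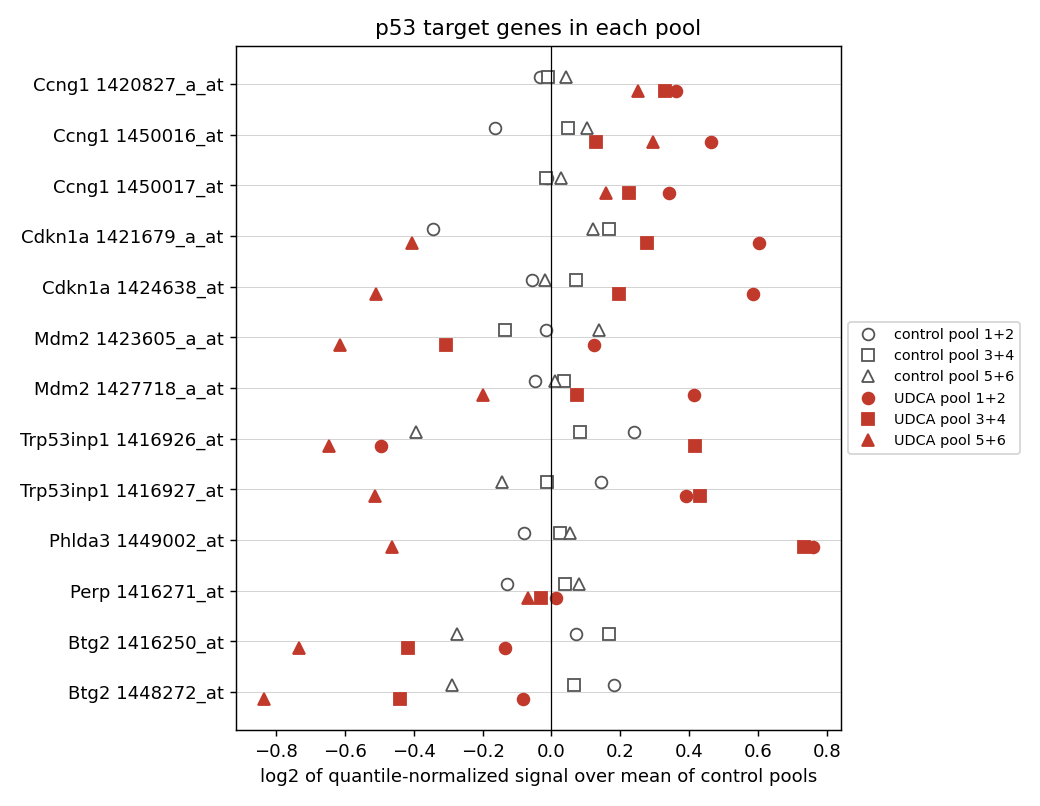
Normalized signal of each of the 13 probe sets (rows) in each pool, as log2 of its ratio to the mean of the 3 control pools; open symbols are control pools, filled symbols UDCA pools, and the shape gives the pool number. The 3 rows of Ccng1 have all UDCA pools to the right of the control pools, while UDCA pool 5+6 (filled triangles) is the leftmost point in 9 of the 13 rows.

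Mdm2 encodes the ubiquitin ligase that marks p53 for destruction and is itself a p53 target. Its probe sets disagreed in sign. Probe set 1423605_a_at had 270.6, 248.9 and 301.1 in control pools and 298.2, 221.2 and 178.9 in UDCA pools, which gave a log2 fold change of -0.24 with an SE of 0.17 (limma adjusted p = 0.542). Probe set 1427718_a_at had 146.7, 155.3 and 152.6 in control pools and 201.9, 159.4 and 132.1 in UDCA pools, which gave a log2 fold change of 0.09 with an SE of 0.15 (limma adjusted p = 0.810). In both, UDCA pool 1+2 was the highest and 5+6 the lowest of the UDCA pools. The sign of 1427718_a_at turned without UDCA pool 1+2 (-0.06), and 1423605_a_at had -0.08 without UDCA pool 5+6.

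Trp53inp1 encodes a stress-induced nuclear protein that promotes phosphorylation of p53 and takes part in autophagy. Probe set 1416926_at had 837.8, 751.9 and 540.2 in control pools and 504.0, 948.2 and 453.9 in UDCA pools, so that UDCA pool 3+4 was the highest and 5+6 the lowest of all pools. The log2 fold change was -0.21 with an SE of 0.27 (limma adjusted p = 0.743). It was -0.53 without UDCA pool 3+4 and -0.01 without UDCA pool 5+6. Probe set 1416927_at was the one below the filter, with 52.0, 46.7 and 42.6 in control pools and 61.7, 63.5 and 33.0 in UDCA pools. Fitted with no filter, it gave a log2 fold change of 0.09 with an SE of 0.22 (limma adjusted p = 0.918).

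Btg2 encodes an antiproliferative protein that brings the CCR4-NOT deadenylase to messenger RNA, and it is also an immediate early gene. It had the lowest log2 fold changes of the set. Probe set 1416250_at had 4004, 4279 and 3154 in control pools and 3471, 2854 and 2292 in UDCA pools. UDCA pool 1+2 lay above control pool 5+6, so the groups overlapped. The log2 fold change was -0.41 with an SE of 0.16 (limma adjusted p = 0.330), with a 95% interval from 0.58-fold to 0.97-fold. Probe set 1448272_at had 2485, 2290.3 and 1792 in control pools and 2067, 1615 and 1227 in UDCA pools, which gave a log2 fold change of -0.43 with an SE of 0.19 (limma adjusted p = 0.366). As deposited the differences were smaller, at -0.26 and -0.30, and without UDCA pool 5+6 they were -0.26 and -0.25.

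Perp encodes a tetraspan membrane protein of the PMP22 family that sits in desmosomes of stratified epithelia and is also a target of the p53 relative p63. It was the steadiest of the set under UDCA. Its probe set 1416271_at had 2170.2, 2440.5 and 2508 in control pools and 2392, 2323 and 2263 in UDCA pools, with the UDCA pools inside the range of the controls. The log2 fold change was -0.03 with an SE of 0.08 (limma adjusted p = 0.902), and the 95% interval reached from 0.87-fold to 1.11-fold. Its sign turned on the deposited scale (0.11), after centring (0.10) and after scaling to a trimmed mean (0.0072).

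**Figure D2:**
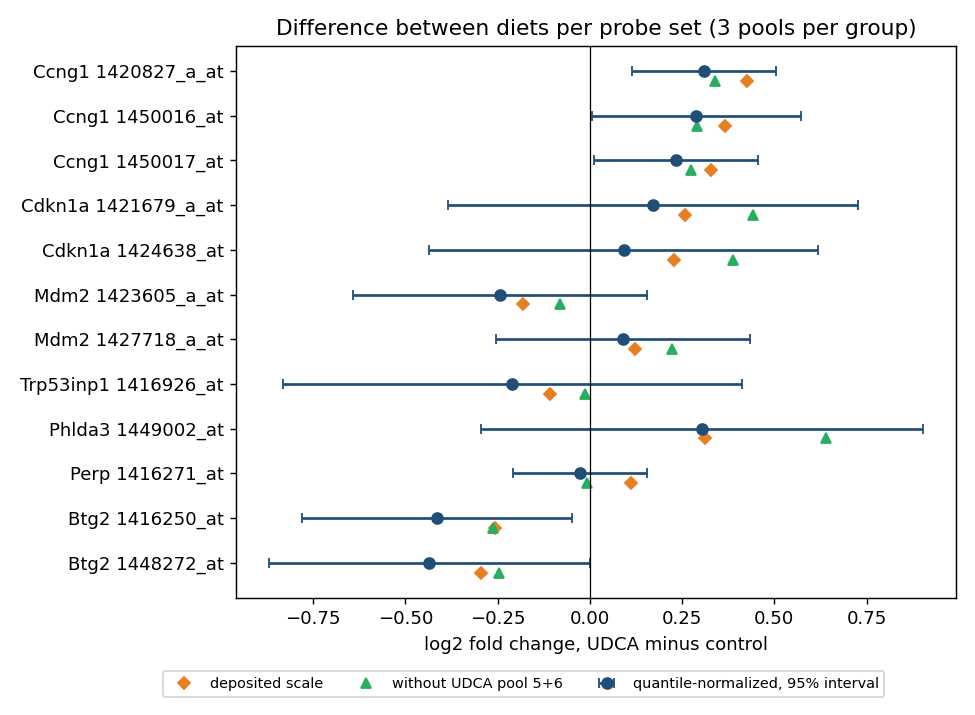
Log2 fold change (UDCA minus control, x axis) of the 12 probe sets above the filter, with 95% intervals from limma on normalized signals (circles), and the values on the deposited scale (diamonds) and without UDCA pool 5+6 (triangles). The intervals of Ccng1 and of Btg2 1416250_at lie on 1 side of 0. Leaving out UDCA pool 5+6, in which Phlda3 was low, moves Phlda3 from 0.30 to 0.64. That is the top of its range with single arrays left out, which begins at 0.13.

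The UDCA pools were more spread than the control pools in most of these genes. This was looked at after the values had been seen. The SD of log2 signals was larger over UDCA than over control pools in 11 of the 12 probe sets, Perp being the exception, against 53.4% of all tested probe sets. For Phlda3 the SD was 0.06 in control and 0.58 in UDCA pools, and for Cdkn1a 1424638_at it was 0.06 and 0.55. The median SD of all tested probe sets was 0.13 in control and 0.14 in UDCA pools. The UDCA spreads of Phlda3, of Trp53inp1 1416926_at and of Cdkn1a 1424638_at were larger than those of 98.4%, 98.2% and 98.1% of tested probe sets. Without Phlda3, which entered only through its UDCA pools, the SD was larger over UDCA pools in 10 of 11. The 12 probe sets cover 7 genes and the same pools, so they are not independent cases.

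**Figure D3:**
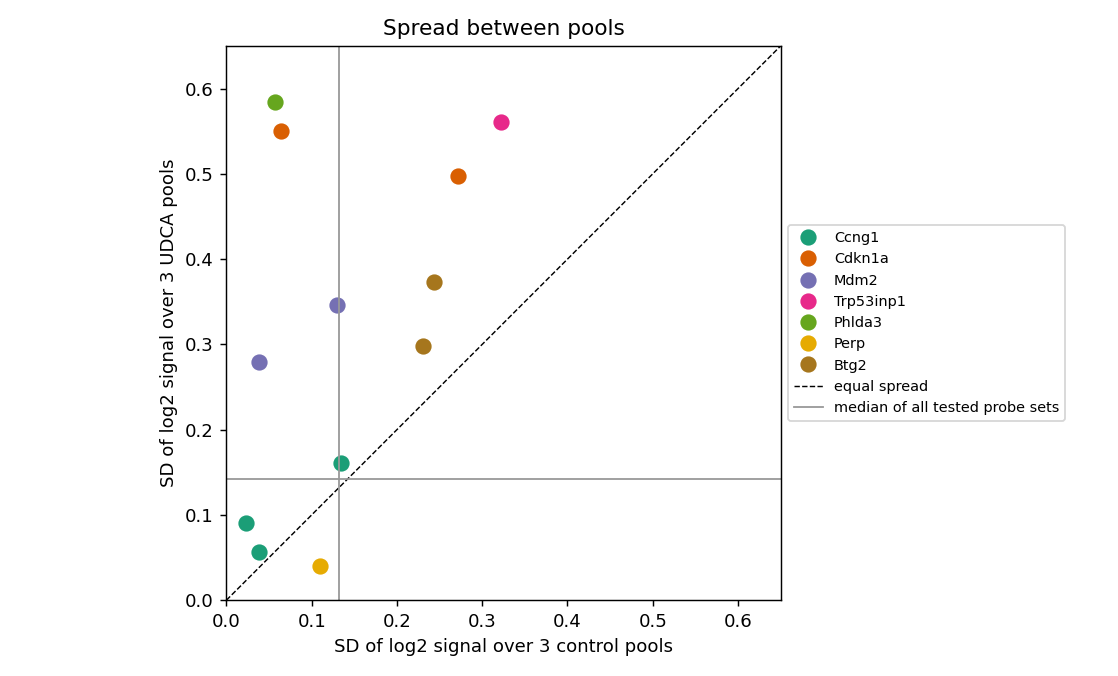
SD of log2 signals over the 3 control pools (x axis) and the 3 UDCA pools (y axis) for the 12 probe sets above the filter; the dashed line marks equal spread and grey lines the medians of all tested probe sets, 0.13 and 0.14. All points except Perp lie above the dashed line, and Phlda3 and Cdkn1a 1424638_at have control spreads of 0.06 beside UDCA spreads of 0.58 and 0.55.

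The order of the pools was also looked at after the values had been seen. It was common to some of these probe sets and not to all. UDCA pool 5+6 was not the lowest in any probe set of Ccng1 or in Perp. UDCA pool 5+6 was the lowest of all 6 pools in 8 of the 12 probe sets, against 13.6% of all tested, and as deposited in 7 of 12, against 20.9%. Counted by gene with the brightest probe set, it was the lowest in 5 of 7 (Cdkn1a, Mdm2, Trp53inp1, Phlda3 and Btg2), against 13.1% of 6769 genes. UDCA pools 1+2 and 3+4 were both above all control pools in 7 of 12 probe sets, those of Ccng1 and Cdkn1a, 1 of Mdm2 and that of Phlda3, against 19.0% of all tested, and as deposited also in 7 of 12, against 21.5%. Both held together in 4 of 12, against 2.09%. By gene, pools 1+2 and 3+4 were above all controls in 3 of 7, against 19.4% of 6769 genes. Both held together in 2 of 7 genes. Without Phlda3 the counts by normalized probe set were 7, 6 and 3 of 11. Pool 5+6 had 0.53 times the mean signal of the other UDCA pools for Cdkn1a 1424638_at, 0.43 times for Phlda3 and 0.94 times for Ccng1 1420827_a_at. Probe sets of 1 gene share their transcript and are not independent, and these counts describe 1 pool of 2 animals. Low values of this pool were not confined to the genes described. By gene, it was the lowest in 5 of 11 family relatives, 5 of 16 integrated stress response genes and 5 of 15 tissue and cell type markers. It was the lowest in 11 of 43 further p53 targets, 5 of 32 regulators and 3 of 18 p21 partners. For mitotic genes and relatives of Perp the counts were 1 of 20 and 1 of 12.

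Other values of that pool are given beside these counts. The summed signal of the 9 colonocyte markers was 50558 in UDCA pool 5+6, the lowest of all pools, and 53000.4 to 57898 in control pools. Of these markers, Car1, Krt20 and Krt8 were not lowest in this pool. The median deposited signal of this array was 68.2, near the lowest of the 6. The 4 named B and plasma cell markers summed to 17.0 in this pool and to 26.6 to 38.9 in control pools, with each marker under a signal of 20 on all arrays. This pool was not the lowest for goblet, T and NK cell, myeloid, fibroblast, endothelial and smooth muscle markers. Goblet markers summed to 17531.5 in it, inside the control range of 16973.1 to 18857.2. Endothelial markers summed to 63.8, the highest of all pools. The part of these values in the order of the pools was not tested. The summed signal of the crypt base and proliferation markers Lgr5, Mki67 and Top2a did not follow that order, with 2285, 1749 and 2472 in UDCA pools and 3960.1, 2429 and 3125 in control pools.

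Further targets of p53 above the filter had mostly negative log2 fold changes, none of which passed. Their list, chosen like all lists here with earlier results known, had 72 genes, of which 60 carried a name and 43 lay above the filter. Of these 43, 0 passed in limma, against 0.0148% of all genes, and 7 had an unadjusted p under 0.05, all lower in UDCA, against 14.3% of all genes, with 7.22% higher and 7.12% lower. The median log2 fold change was -0.09, and 0.0007 over all genes, with 16 of 43 positive against 50.1%. On the deposited scale the list's median was -0.0034. Thbs1, which encodes the matrix protein thrombospondin-1, had -0.78 (SE 0.28; limma adjusted p = 0.316) with signals of 364.4, 494.6 and 478.2 in control pools and 344.4, 304.5 and 148.5 in UDCA pools. The chemokine gene Cx3cl1 had -0.48, the spindle gene Psrc1 -0.47 and Apaf1, the core of the apoptosome, -0.41, with limma adjusted p of 0.318 to 0.359. Psrc1, Bbc3 and Pml had UDCA means below the filter's floor of 76.1 and entered only through their control pools. Without these 3, 5 of 40 had an unadjusted p under 0.05, all lower, and the median was -0.07. Genes below the filter went both ways and are not in these counts. Among them Sulf2, named after its values were seen, had 12.5, 41.0 and 66.6 in control pools and 114.1, 141.7 and 180.2 in UDCA pools. UDCA pool 5+6 was the lowest of the 6 in 11 of the 43, against 13.1%, and UDCA pools 1+2 and 3+4 were above all controls in 3, against 19.4%.

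Regulators and partners of p53 numbered 32 above the filter, with a median log2 fold change of -0.05 (0.04 on the deposited scale) and 13 positive. None passed in limma (0 of 32), against 0.0148% of all genes. Of the 32, 2 higher and 3 lower had an unadjusted p under 0.05, against 7.22% and 7.12% of all genes. Atr, a kinase of the DNA damage response, had -0.37, and Prmt5, an arginine methyltransferase, had 0.33. The acetyltransferase gene Kat2b had -0.45 and the ubiquitin and SUMO ligase gene Topors -0.34, and for these 4 genes limma adjusted p was 0.316 to 0.319. Over the 32 genes, the groups did not overlap in 4 that were higher and 5 that were lower in UDCA, against 19.8% of all genes in either direction. The 4 named genes are among these, and they were picked by their small p.

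A list of p21 partners held cyclin-dependent kinases, their cyclins, other inhibitors of these kinases, the RB family and further partner genes. It had 18 genes above the filter, with a median of -0.07 (0.03 on the deposited scale) and 6 positive. None passed in limma (0 of 18, against 0.0148% of all genes) and 2 had an unadjusted p under 0.05, both lower, against 7.12% of all genes in that direction. Ccnd2, a cyclin that starts the cell cycle, had signals of 2796, 2617 and 2745 in control pools and 1735, 2269 and 2193 in UDCA pools, which gave a log2 fold change of -0.40 with an SE of 0.11 (limma adjusted p = 0.286). Cdkn1b, the relative of p21 known as p27, had -0.42, and the RB relatives Rbl2 and Rbl1 had -0.35 and -0.29. Among 20 mitotic genes that p53 is known to lower through p21, 3 were positive and the median was -0.26 (-0.18 on the deposited scale), with 0 of 20 that passed in limma and 4 at an unadjusted p under 0.05, all lower, against 7.12% of all genes. With single arrays left out the median ran from -0.39 (without UDCA pool 5+6) to -0.09 (without UDCA pool 3+4). Cenpf, a kinetochore protein gene, had 440.6, 327.9 and 334.4 in control pools and 235.0, 146.3 and 273.9 in UDCA pools, which gave a log2 fold change of -0.74 with an SE of 0.22 (limma adjusted p = 0.300). The proliferation marker Mki67 had -0.56, the mitotic kinesin gene Kif23 -0.34 and the tubulin-binding Stmn1 -0.30. UDCA pool 5+6 was the lowest of the 6 in 1 of these 20 genes, against 13.1% of all genes. Some genes stand in more than 1 list, among them Mki67, Top2a and Cdkn1b.

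**Figure D4:**
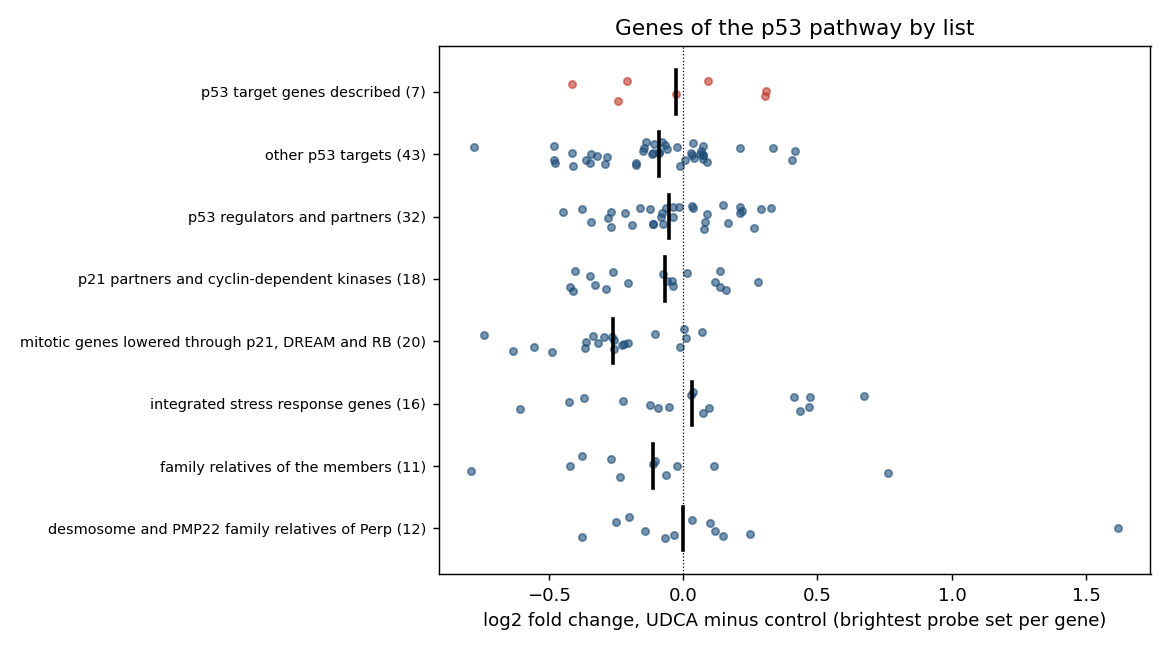
Log2 fold change (UDCA minus control, x axis) of each gene above the filter, by its brightest probe set, in the 7 genes described and in 7 further lists; dots are genes, black bars list medians, and the number of genes stands in brackets. The median of the mitotic list is -0.26 and the other lists have medians between -0.11 and 0.03.

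Genes of the integrated stress response, a pathway that can induce several p53 targets without p53, went both ways. Of 16 above the filter, 9 were positive against 50.1% of all genes, and the median was 0.03 (-0.0029 after scaling to a trimmed mean, and -0.045 to 0.10 with single arrays left out). None passed in limma (0 of 16, against 0.0148% of all genes), with 4 higher and 2 lower at an unadjusted p under 0.05, against 7.22% and 7.12% of all genes. Nupr1, a stress-induced chromatin protein gene, had signals of 1888, 1835 and 1997 in control pools and 1477, 984.0 and 1330.3 in UDCA pools, which gave a log2 fold change of -0.61 with an SE of 0.14 (limma adjusted p = 0.266). Asns, asparagine synthetase, had 372.4, 330.3 and 420.1 in control pools and 536.2, 508.7 and 521.6 in UDCA pools, which gave a log2 fold change of 0.47 with an SE of 0.11 (limma adjusted p = 0.266). The kinase gene Eif2ak2 had -0.42 and Phgdh, which starts serine synthesis, 0.67, without passing.

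Relatives of the members by family had 11 genes above the filter, 2 of them positive, with a median of -0.11 (0.02 on the deposited scale) and 0 that passed in limma, against 0.0148% of all genes. At an unadjusted p under 0.05 there were 1 higher and 3 lower, against 7.22% and 7.12% of all genes, shares that also apply to the next lists. Phlda2, the relative of Phlda3, had signals of 82.5, 134.4 and 114.4 in control pools and 327.2, 156.0 and 143.5 in UDCA pools, which gave a log2 fold change of 0.76 with an SE of 0.29 (limma adjusted p = 0.324). Bmp2, of the same ligand superfamily as Gdf15, had -0.79 (limma adjusted p = 0.289) and passed only without control pool 5+6. Ccni, a cyclin gene related to Ccng1, had -0.37, and Cdkn1b is given above. Around Perp, 12 genes of the desmosome and of the PMP22 family had a median of -0.0002 (0.07 on the deposited scale) and 0 that passed in limma, with 1 higher and 1 lower at an unadjusted p under 0.05. Emp1, of the PMP22 family, spread widely, with 213.9, 535.2 and 1770.0 in control pools and 2694, 1872 and 1265 in UDCA pools, which gave a log2 fold change of 1.62 with an SE of 0.63 (limma adjusted p = 0.335), and it passed on the deposited scale. The desmosome gene Dsp had -0.20, and Pmp22 and Emp2 had -0.25 and -0.38. In the marker list the median was -0.04 (0.07 on the deposited scale), 0 of 15 passed in limma, and Mki67, the stem cell marker Lgr5, the goblet cell gene Tff3 and the colonocyte gene Car4 had -0.56, -0.44, -0.25 and -0.49, with 3 lower at an unadjusted p under 0.05.

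The genes whose values over the 6 pools were most like those of the members with the smallest p were looked up by the root mean square difference of log2 signals, each minus its own mean. For Ccng1 they were Mphosph8 with 0.02, the chaperonin gene Cct8 with 0.03 and Prkar1a, a regulatory subunit of protein kinase A, with 0.03, where the median gene had 0.21. Mphosph8 had 138.8, 134.1 and 146.2 in control pools and 184.2, 181.1 and 167.0 in UDCA pools. For Btg2 they were the glucosylceramide synthase gene Ugcg with 0.05, the AP-1 gene Junb with 0.05 and the chromatin remodeller gene Chd7 with 0.08, where the median gene had 0.34. Junb had 1858, 1962 and 1339.9 in control pools and 1474, 1285 and 1063 in UDCA pools, and its log2 fold change was -0.42 (limma adjusted p = 0.337).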

How the data were processed

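Total RNA of mouse colon epithelium was extracted with Trizol and made into biotin-labelled cRNA for Affymetrix arrays, per the labels' protocols. The values the authors deposited are linear signal intensities, 1 for each probe set and array. The submitters' processing notes name GCOS without a version or settings. The authors' deposited fold table was not used, because the average it gives for its N group is that of all 6 arrays together for 22690 of 22690 probe sets.

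Intensities were quantile-normalized and fitted as log2(intensity + 16) with limma 3.58.1 in R 4.3.3 (lmFit, eBayes with trend, two-sided), on the upper 50% of probe sets by mean, with each gene in a list given by its brightest probe set. Of 22690 probe sets, 20393 had 1 symbol and 691 several, and the annotation used did not list the other 1606, which stay unnamed. In 10 simulations on 11345 probe sets with 200 planted changes of UDCA against control, the fit called 84.0% of those planted at a log2 size of 1 and 92.4% of those at 2, and 6.42% of calls were false. The changes were planted only among the brighter of the tested probe sets, with independent normal noise. No change as small as those of the genes described was planted, so these shares do not give the power for them.

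The members, lists and tests were chosen with earlier results of these data known. In each list the 4 members with the smallest p are named. Alternatives were other scalings (none, median centring, 2% trimmed mean), pseudocounts of 1 and 64, no filter or the upper 25%, eBayes without trend or robust, array weights, a block for the pool number, leaving out each array, and averaging the probe sets of a gene. The number of arrays limits the precision. Pools are of different animals.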

Additional observations from a re-analysis of the deposited data

How the results depend on the processing

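No probe set of the 7 genes passed in limma under any of the 17 alternatives run, with 1 to 5 of them at an unadjusted p under 0.05. The count over all probe sets, 1 as reported, was 82 on the deposited scale (54 higher and 28 lower), 0 with no filter (2318 at an unadjusted p under 0.05), 0 in the upper 25% by mean (784), and 0 to 36 with single arrays left out (36 without control pool 5+6, 6 without UDCA pool 5+6). With the pool number as a replicate block it was 0 (1485 at an unadjusted p under 0.05). Deviations from the group means correlated at -0.11, 0.16 and 0.05 between same-numbered pools, and at -0.20 to 0.15 between pools of other numbers. Whether same-numbered pools were handled together was not tested. The log2 fold changes of Ccng1, Btg2, Phlda3, Trp53inp1 1416926_at and Mdm2 1423605_a_at kept their sign under all alternatives run. Perp turned to 0.11 on the deposited scale, 0.10 after centring and 0.0072 after scaling to a trimmed mean, and ranged from -0.087 to 0.014 with single arrays left out. With single arrays left out, Cdkn1a 1421679_a_at ranged from -0.045 to 0.44, Cdkn1a 1424638_at from -0.15 to 0.39 and Mdm2 1427718_a_at from -0.056 to 0.22. Called members of the lists were 0 except 1 among relatives of Perp on the deposited scale (Emp1), and 0 to 1 among family relatives with single arrays left out (Bmp2, without control pool 5+6). The causes were not tested. Leaving out genes that entered the fit through 1 group only was chosen after seeing the data.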
